A study of Mus musculus with 11 samples.

Results

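YAP, TAZ, TEAD and Hippo genes were examined in KP1 cells, a mouse SCLC line with *Rb* and *p53* mutations. The set was 10 genes chosen by name and role, out of 35056 genes in the files: the coactivators *Yap1* and *Wwtr1* (the gene for TAZ), the DNA-binding partners *Tead1*, *Tead2*, *Tead3* and *Tead4*, the TEAD cofactor *Vgll4*, the kinases *Lats1* and *Lats2*, and the scaffold gene *Amotl2*. Bulk RNA-seq covered 2 control cultures labelled untreated (replicates 2 and 3) and 3 cultures that received 5 Gy (replicates 1, 2 and 3), with cell pellets taken at 24 h. All 5 cultures were the same line, grown in RPMI-1640 with serum, without stroma or a host. Nothing in the labels says that the cultures were grown apart, so p-values measure the spread between these libraries.

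The Hippo pathway restrains growth through a chain of kinases. MST kinases, the products of *Stk3* and *Stk4*, activate LATS1 and LATS2, which phosphorylate YAP and TAZ and keep them out of the nucleus. YAP and TAZ that escape this control bind TEAD factors and switch on genes of adhesion, matrix and proliferation. Neuroendocrine SCLC is known for little or no YAP, and cells that have left the neuroendocrine state for more YAP and TAZ. Activity in this pathway is set largely by phosphorylation and location of the proteins, which RNA does not measure.

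The libraries held 21185956 to 31036317 estimated reads, summed here from transcripts to genes. KP1 carried its neuroendocrine markers: all 9 of a list passed the filter on low counts, with 7320 to 12968 reads of *Chga*. Of these 9, 3 were called higher (*Uchl1* by 1.14 on the log2 scale) and 1 lower (*Ncam1*, −1.20, adjusted p = 0.0227). Over all genes tested, 12.7% were called higher and 13.0% lower. With the length offset 0 of the 9 were called, where 2.85% of all genes were called higher and 2.08% lower. All 5 non-neuroendocrine markers of a list passed the filter as well, with 296 to 491 reads of *Vim* and 206 to 287 of *Cd44*. The others had fewer, with 57 to 146 reads of *Myc*, 6 to 34 of *Hes1* and 10 to 18 of *Rest*. In a list of 4 markers of other SCLC subtypes, *Neurod1* had 224 to 367 reads and *Sox9* 338 to 910, and neither was called. *Pou2f3* and *Ascl2* of that list had at most 1 read in any library. Markers of other cell types ranged from 0 reads (*Col3a1* and *Scgb1a1*) and 2 or fewer (*Adgre1* and *Csf1r*) to 9 to 51 of *Cd68*, 276 to 1064 of *Epcam* and 2368 to 3707 of *Pdgfra*. The summed TPM (abundance per transcript length, scaled within a library) of 5 leukocyte markers was 4.55 and 6.89 in control and 1.18 to 1.62 in irradiated libraries, and that of 3 endothelial markers 1.28 and 1.55 against 0.314 to 0.524. The leukocyte sum was mostly *Cd68*, whose reads overlapped (21 and 51 in control against 24, 9 and 22). *Cd68*, *Pecam1* and *Kdr* were the markers tested here, and none was called (adjusted p = 0.372, 0.163 and 0.387). The summed TPM of 4 lung epithelial markers was 13.3 and 22.2 against 34.2 to 46.6. *Epcam* and *Sftpc* were called higher, though not with the length offset (1.07, adjusted p = 0.0593, and 1.11, adjusted p = 0.128). *Cdh1* of this list went the other way, with 27 and 2 reads in control and 0 in each irradiated library, and was not tested. The part of these markers in the results was not tested. In bulk RNA, fewer cells with a transcript and less of it per cell cannot be told apart. Reads of the control libraries also came from longer transcripts: an average read lay on a transcript of 5465 and 4731 bases in control and of 3716, 3626 and 3999 bases in irradiated libraries. Calls among the pathway genes and targets are therefore set beside a fit with a transcript length offset, a smooth function of length fitted in each library, which takes out any trend with length whether technical or biological.

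Among the 10 genes, the TEAD family was carried by *Tead1*, the coactivators were near the limit of detection, and *Lats2* had no read. After 5 Gy, *Tead1* and *Lats1* fell and *Vgll4* rose by edgeR's quasi-likelihood test at an adjusted p under 0.05. Of the 9 genes tested, 2 were called lower, where 13.0% of all 14106 genes tested were called lower, and 1 was called higher, where 12.7% of all genes were. The other 6 were not called. The groups did not overlap for 3 genes on the lower side and 2 on the higher side, with a background of 29.3% and 30.1% of all genes tested. The median log2 fold change of the 9 genes was −0.07, beside 0.02 over all genes tested. With the transcript length offset 0 of the 9 were called in either direction, where 2.08% of all genes were called lower and 2.85% higher, and the median of the 9 was 0.17. At the study's threshold of 1.5 on the log2 fold change, 0 of the 9 were called, where 1.9% of all genes were called lower and 1.63% higher.

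**Figure D1:**
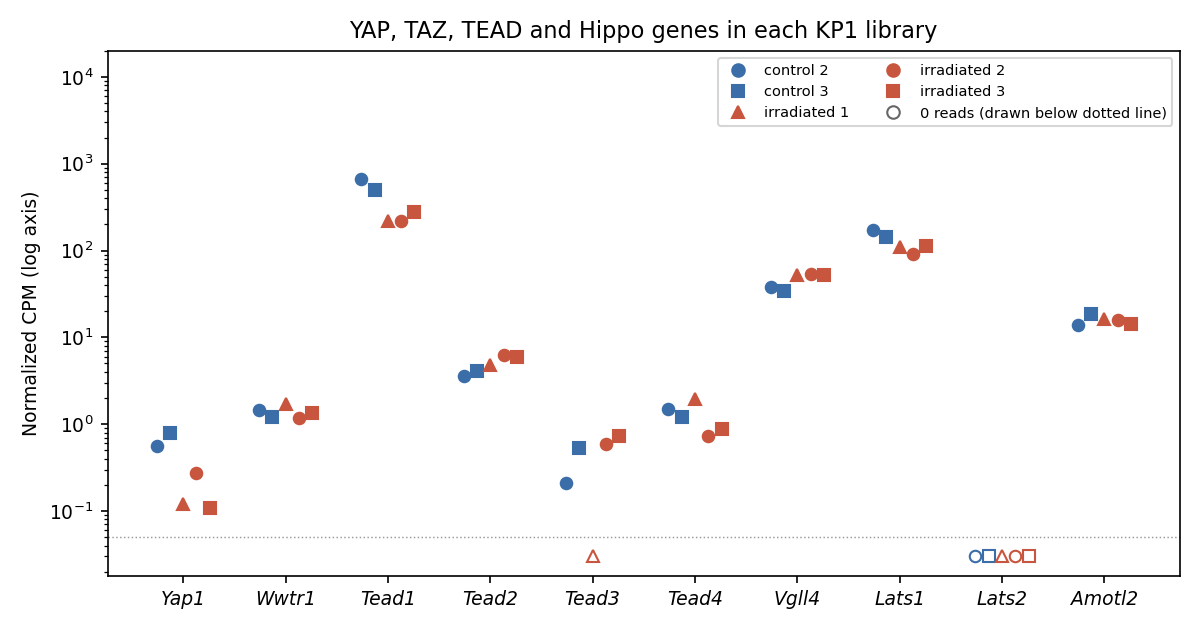
CPM, reads scaled to library size with TMM factors (log axis), for the 10 genes in each of 5 KP1 libraries. Blue symbols are control and red symbols irradiated libraries, symbol shape gives the replicate number, and open symbols below the dotted line mark 0 reads. *Tead1* lies at 498 and 665 in control and at 216 to 281 in irradiated libraries.

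In control cells *Tead1* stood first at 192 and 143 TPM. *Vgll4*, at 58.2 and 49.0 TPM, and *Lats1*, at 55.0 and 42.6 TPM, followed with overlapping ranges, and then *Tead2* and *Amotl2*, whose ranges also overlapped. *Tead4*, *Wwtr1* and the pair *Yap1* and *Tead3*, which overlapped, were at 1.68 TPM or less. In irradiated cells the ranges of *Vgll4* (60.1 to 65.9 TPM) and *Tead1* (45.8 to 70.1 TPM) overlapped at the top. *Lats1* came next at 20.2 to 27.4 TPM, and below it *Amotl2* and *Tead2* overlapped, as did the neighbours *Tead4*, *Wwtr1* and *Tead3*. Among all genes of a library ordered by TPM, *Tead1* held rank 793 and 1176 in control libraries and rank 3374, 3515 and 2407 in irradiated libraries 1, 2 and 3.

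*Yap1* encodes the coactivator YAP, and its gene lies on the minus strand at chr9:7931999-8004596 (GRCm38/mm10). It had 16 and 21 reads in control libraries and 3, 6 and 3 reads in irradiated libraries. The groups did not overlap, with all irradiated libraries lower. edgeR gave a log2 fold change of −2.0 (SE 0.78, 95% CI −3.79 to −0.21, n = 2 and 3) and an adjusted p of 0.0909, short of the threshold. With the length offset the log2 fold change was −1.60 and the adjusted p 0.232.

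These reads were not assigned to a coding transcript of *Yap1*. Salmon placed every one of them on Yap1-208, a model annotated as a retained intron, and gave 0 reads to each of the 3 protein-coding models in all 5 libraries. Yap1-208 is 5282 bases long, of which 733 are shared with coding exons and 4549 (86.1%) lie in introns of the coding models. Positions of single reads are not known here, and a read within the shared bases could match a coding model as well. The sequence across the end of the coding exon is shown because it marks where this model stops matching the coding mRNA. Capitals are the last 25 bases of the exon and lower case is the retained intron (chr9:8001432-8001481, minus strand).
Yap1-208: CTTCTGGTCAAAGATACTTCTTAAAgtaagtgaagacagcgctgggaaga
The 3 to 21 reads of *Yap1* are thus counts on a model that is mostly intron.

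*Wwtr1* encodes TAZ, the paralog of YAP, and lies on the minus strand at chr3:57455649-57575910. It had 42 and 32 reads in control and 43, 26 and 37 reads in irradiated libraries. All of them were on one protein-coding model of 4697 bases. The groups overlapped, and the log2 fold change was 0.08 (SE 0.51, 95% CI −1.07 to 1.24, adjusted p = 0.918), an interval that leaves room for a change of 1 log2 unit either way. TAZ mRNA was therefore the only coactivator message with reads that Salmon assigned to a coding model, at 0.386 to 0.606 TPM. Between the coactivators and the TEADs the gap in level was wide: summed TEAD TPM was 245 and 206 times the summed TPM of *Yap1* and *Wwtr1* in control libraries, and 91.3, 119 and 148 times in irradiated libraries 1, 2 and 3.

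*Tead1* (chr7:112679318-112906807, plus strand) encodes the TEAD factor with the most mRNA in these cells. It had 18998 and 13268 reads in control and 5437, 4735 and 7728 reads in irradiated libraries. The highest irradiated library stayed well under the lowest control. The log2 fold change was −1.29 (SE 0.19, 95% CI −1.73 to −0.85, adjusted p = 0.0091), or 0.409 of the control level, and 5.87% of all genes tested had a lower value. *Tead1* also has the longest main transcript of the set, 9964 bases beside a median of 2981 bases over all genes tested. With the length offset the log2 fold change was −0.38 (SE 0.13, adjusted p = 0.109), so the call did not survive it.

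**Figure D2:**
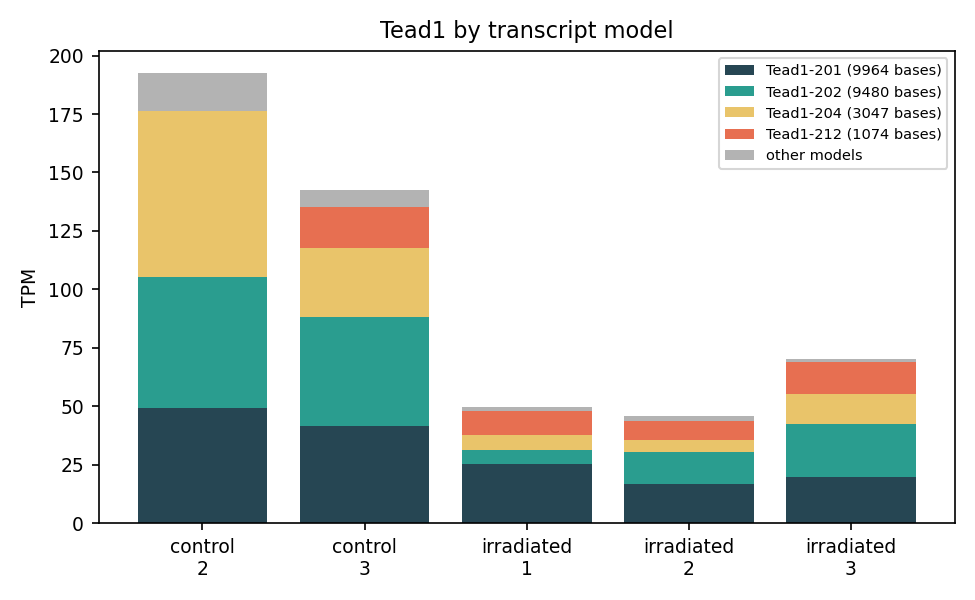
TPM of *Tead1* in each library, stacked by transcript model as estimated by Salmon, with the 4 models of highest mean TPM named with their lengths and the rest in grey. The stacks reach 192 and 143 TPM in control libraries and 45.8 to 70.1 TPM in irradiated libraries, and both the long models and Tead1-204 are smaller in irradiated libraries.

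The plot of *Tead1* by model shows which transcripts made up this level. The pair of models with the long last exon, Tead1-201 and Tead1-202, held 105 and 88.0 TPM in control and 31.3, 30.2 and 42.5 TPM in irradiated libraries. Their share of *Tead1* TPM was 54.7% and 61.7% in control and 63.3%, 66.0% and 60.5% in irradiated libraries, with ranges that overlapped. Tead1-204, which has 3047 bases and a short last exon, was at 70.9 and 29.5 TPM in control and at 6.26, 5.42 and 12.6 TPM in irradiated libraries. A still shorter model, Tead1-212 of 1074 bases, was at 0 and 17.8 TPM in control and at 10.3, 7.85 and 14.0 TPM in irradiated libraries, so its groups overlapped. Models of similar length, Tead1-211, Tead1-207 and Tead1-210 (1218, 1248 and 1185 bases), were at 4.01 TPM or less and lower in all irradiated libraries.

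The models also differ by a small exon and by a longer cassette, shown here because they change the coding sequence of the factor that dominates the family. Tead1-204 carries a 12-base exon (chr7:112856053-112856064, capitals) that Tead1-202 skips, with 25 bases of the neighbouring exons on either side in lower case. Tead1-201 carries a coding exon of 63 bases (chr7:112841888-112841950, capitals) that Tead1-202 and Tead1-204 lack.
Tead1-204: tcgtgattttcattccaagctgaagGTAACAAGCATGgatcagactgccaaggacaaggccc
Tead1-202: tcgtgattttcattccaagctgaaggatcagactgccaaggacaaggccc
Tead1-201: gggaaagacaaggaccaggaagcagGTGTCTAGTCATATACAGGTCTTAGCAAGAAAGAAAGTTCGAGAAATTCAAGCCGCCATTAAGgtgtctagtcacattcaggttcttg
Among the 7 models that hold both neighbours of the 12-base exon, those with it made up 67.1% and 65.4% of TPM in control and 87.3%, 68.1% and 66.7% in irradiated libraries 1, 2 and 3. Irradiated library 1 alone stood apart. Models with the 63-base exon made up 27.5% and 30.8% in control and 52.9%, 37.8% and 28.3% in irradiated libraries, so the groups overlapped here as well. These shares are estimates that split reads shared between models, and they carry no test.

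*Tead2* (chr7:45215753-45233644, plus strand) had 103 and 109 reads in control and 121, 137 and 165 reads in irradiated libraries. All irradiated libraries were higher, but the log2 fold change of 0.56 (SE 0.30, 95% CI −0.12 to 1.25) had an adjusted p of 0.193. Its TPM did not follow its reads: control library 3 was at 22.3 TPM, beside 5.04 in control library 2 and 5.01 to 8.83 in irradiated libraries. Of that value, 12.9 TPM came from 8 reads on Tead2-210, a processed transcript of 272 bases. With offsets from Salmon's effective lengths the log2 fold change turned to −0.70.

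*Tead3* and *Tead4* were close to the limit of what these libraries can measure. *Tead3* (chr17:28331671-28350817, minus strand) had 6 and 14 reads in control and 0, 13 and 20 reads in irradiated libraries. Salmon assigned only the 20 reads of irradiated library 3 to a protein-coding model, and the reads of the other libraries to retained-intron models. *Tead4* (chr6:128224288-128300823, minus strand) had 43 and 32 reads in control and 49, 16 and 24 reads in irradiated libraries, all on coding models. The groups overlapped for both genes. The log2 fold changes were 0.26 (SE 1.20, adjusted p = 0.892) for *Tead3* and −0.19 (SE 0.61, adjusted p = 0.846) for *Tead4*.

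Within the TEAD family, *Tead1* made up 96.6% and 85.7% of the summed TPM in control and 87.0%, 82.7% and 91.3% in irradiated libraries, and the groups overlapped. When transcripts under 500 bases were left out, a choice made after the data were seen, its share was 97.3% and 96.8% in control and 89.3%, 87.7% and 91.3% in irradiated libraries. On that scale the share of *Tead2* was 1.77% and 2.21% in control and 6.95%, 10.9% and 6.52% in irradiated libraries, and the groups did not overlap. *Tead1* thus remained most of the TEAD mRNA in every library on both scales. These shares carry no length offset, and the main transcripts of *Tead1* and *Tead2* have 9964 and 2140 bases. Their log2 fold changes were −1.29 and 0.56 as fitted, and −0.38 and 0.32 with the length offset.

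*Vgll4* (chr6:114860628-114969994, minus strand) encodes a cofactor that binds TEADs in place of YAP and TAZ and restrains their targets. It had 1093 and 919 reads in control and 1313, 1178 and 1433 reads in irradiated libraries. All irradiated libraries were higher, by a log2 fold change of 0.54 (SE 0.14, 95% CI 0.20 to 0.87, adjusted p = 0.0310). The call was lost with the length offset (0.30, adjusted p = 0.204), with the effective length offset (0.57, adjusted p = 0.0522) and whichever library was left out (adjusted p 0.0653 to 0.101). Its main transcript had 2198 bases. Salmon did not assign most reads to a coding model. Vgll4-205, annotated as a processed transcript without a coding frame, took 635 and 687 reads in control and 960, 878 and 1040 in irradiated libraries. Coding models took 41.9% and 25.3% of the reads in control and 26.8%, 25.3% and 27.4% in irradiated libraries.

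The balance of *Vgll4* and *Tead1*, a ratio chosen after the values were seen, was 0.303 and 0.344 in TPM in control libraries and 1.24, 1.31 and 0.939 in irradiated libraries. The log2 fold changes of the genes differed by 1.82 as fitted and by 0.69 with the length offset. The other VGLL genes of a list of 3, *Vgll1*, *Vgll2* and *Vgll3*, had at most 2 reads in any library, and the former pair had 0 in all 5.

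*Lats1* (chr10:7681214-7716460, plus strand), one of the kinases that phosphorylate YAP and TAZ, had 4893 and 3776 reads in control and 2723, 1995 and 3119 reads in irradiated libraries. All irradiated libraries were lower. The log2 fold change was −0.58 (SE 0.16, 95% CI −0.96 to −0.21, adjusted p = 0.0338). With the length offset it was 0.08 (adjusted p = 0.723), with the sign turned. Leaving out control library 2, irradiated library 1 or irradiated library 2 also ended the call, with adjusted p of 0.208, 0.0761 and 0.114. Both coding models with reads were lower in TPM in irradiated libraries. Lats1-202, of 7209 bases, was at 32.1 and 32.9 TPM in control and 21.2, 17.1 and 24.3 TPM in irradiated libraries. Lats1-203, of 4186 bases, was at 22.9 and 9.70 TPM in control and 4.39, 3.09 and 3.06 TPM in irradiated libraries.

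*Lats2* (chr14:57689662-57758388, minus strand), the paralog of *Lats1* and itself a known YAP target, had 0 reads in each of the 5 libraries. A count of 0 allows up to 3 reads, or 0.105 to 0.137 CPM in these libraries, counting error alone. *Gm49361*, an annotated gene that overlaps *Lats2* on the same strand, was at 0 reads as well. LATS kinase mRNA was therefore *Lats1* mRNA in these cells, as far as this depth can show.

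*Amotl2* (chr9:102716672-102733418, plus strand) encodes an angiomotin scaffold that holds YAP at junctions. It had 396 and 491 reads in control and 407, 345 and 392 reads in irradiated libraries. The groups overlapped, and the log2 fold change was −0.07 (SE 0.21, 95% CI −0.54 to 0.41, adjusted p = 0.838).

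**Figure D3:**
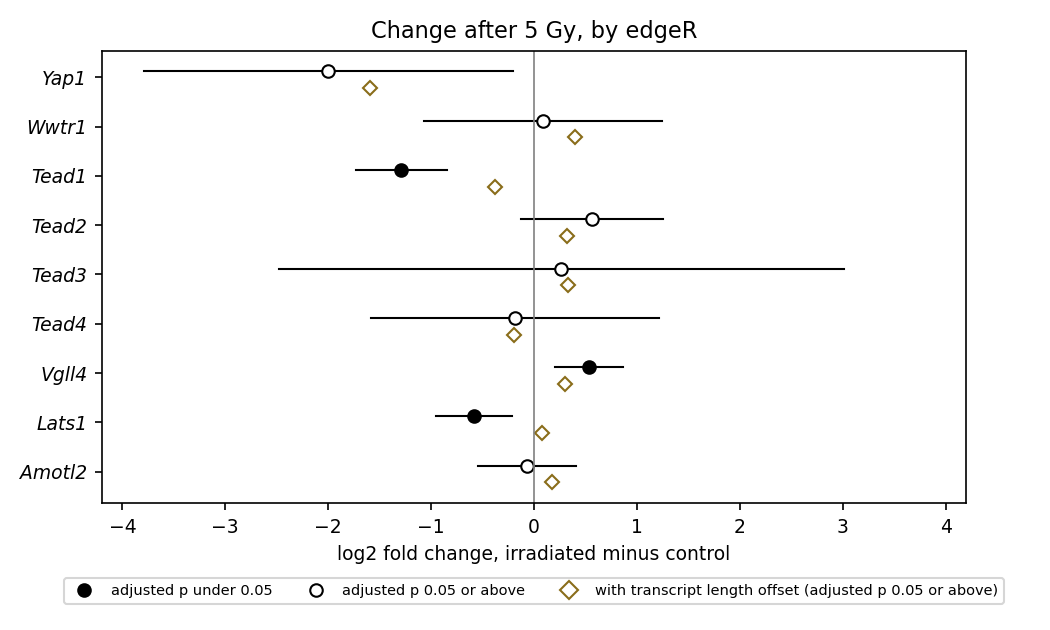
Log2 fold change of irradiated against control libraries for the 9 genes tested. Circles are edgeR's estimates with 95% confidence intervals as bars, filled where the adjusted p was under 0.05, and diamonds are the estimates with the transcript length offset, all open because none reached that threshold. *Tead1* moves from −1.29 to −0.38 and *Lats1* from −0.58 to 0.08.

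The promoters of the set were searched for the letters GGAATG, the core of the element that TEAD factors bind, on both strands of RefSeq promoter windows (250 bases before to 50 bases after a start site, GRCm38.p6). Windows were given for 8 of the 10 genes, without *Tead1* and *Tead4*. The letters were in a window of 6 of these 8 genes, namely *Yap1*, *Wwtr1*, *Vgll4*, *Amotl2*, *Lats2* and *Tead3*, and in none of *Tead2* and *Lats1*. Among all 32851 windows 14.7% held them, and 16.6% of 27025 genes had at least one such window. Examples from the coactivators and *Vgll4* are shown, on the strand of the gene with the match in capitals, since these genes both act on TEAD and carry the letters near their start.
Yap1 (chr9:8004712-8004757, minus strand, 141 bases before the start): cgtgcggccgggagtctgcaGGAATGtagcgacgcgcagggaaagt
Wwtr1 (chr3:57576021-57576066, minus strand, 136 bases before the start): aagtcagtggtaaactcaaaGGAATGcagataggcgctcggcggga
Vgll4 (chr6:114969260-114969305, minus strand, 82 bases before the start): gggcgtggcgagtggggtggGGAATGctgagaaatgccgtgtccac
Among genes with this match, *Vgll4* was called higher, and *Yap1*, *Wwtr1*, *Amotl2* and *Tead3* were not called. A match to these letters is a description of the sequence and not a binding site.

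In the kinase chain around LATS, 17 genes were tested, and 3 were called lower and 0 higher, beside 13.0% and 12.7% of all genes tested. Their median log2 fold change was −0.27, and 0.04 with the length offset, under which 0 were called in either direction. *Taok1* and *Taok2* encode kinases that activate MST. *Taok1* had 5318 and 5010 reads in control and 2439, 2014 and 3085 in irradiated libraries (log2 fold change −0.90, SE 0.15, adjusted p = 0.0092), and with the offset the sign turned (0.13). *Taok2* had 8798 and 7193 reads in control and 3936, 3457 and 5242 in irradiated libraries (−0.78, SE 0.16, adjusted p = 0.0132, and −0.47 with the offset, adjusted p = 0.0698). *Tnik*, of the MAP4K family, had 1323 and 849 reads in control and 616, 364 and 669 in irradiated libraries (−0.84, SE 0.24, adjusted p = 0.0351, and −0.18 with the offset, adjusted p = 0.558). *Taok3* (−0.48, adjusted p = 0.0741) and the abundant *Map4k4* (−0.43, adjusted p = 0.0841) did not pass. The MST genes *Stk3* and *Stk4*, their partner *Sav1* and the LATS partners *Mob1a* and *Mob1b* had reads in all libraries and were not called.

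Of 19 genes for junctions and scaffolds, 17 were tested, with 5 called lower and 1 higher, beside 13.0% and 12.7% of all genes, and a median log2 fold change of −0.37. The calls lower were *Fat1*, *Fat4*, *Dchs1*, *Amot* and *Scrib*, and the call higher was *Rassf1*. With the offset *Scrib* was at −0.06 (adjusted p = 0.764) and *Rassf1* at 0.64 (adjusted p = 0.0998). *Fat1* and *Fat4* encode giant cadherins and *Dchs1* encodes the ligand of FAT4. *Fat1* had 4462 and 2382 reads in control and 683, 632 and 1057 in irradiated libraries (−1.96, SE 0.25, adjusted p = 0.0082). With the length offset it was still called, at −0.76 (adjusted p = 0.0410), and it was the one call among the 45 kinase, junction and STRIPAK genes tested. *Fat4* had 2356 and 1190 reads in control and 277, 365 and 616 in irradiated libraries (−1.93, SE 0.33, adjusted p = 0.0095, and −0.66 with the offset, adjusted p = 0.146). *Dchs1* had 9858 and 4829 reads in control and 1939, 2093 and 3419 in irradiated libraries (−1.41, SE 0.29, adjusted p = 0.0131, and −0.42 with the offset, adjusted p = 0.228). The main transcripts of these 3 genes have 14814, 16109 and 10754 bases. *Amot*, a relative of *Amotl2*, had 1083 and 834 reads in control and 401, 252 and 464 in irradiated libraries (−1.22, SE 0.21, adjusted p = 0.0099, and −0.65 with the offset, adjusted p = 0.0655). The casein kinase genes *Csnk1d* (0.31, adjusted p = 0.167) and *Csnk1e* (0.18, adjusted p = 0.383), the most abundant of the list, did not pass.

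STRIPAK, the phosphatase complex that switches MST kinases off, had 11 genes tested, with 1 called lower and 1 higher, beside 13.0% and 12.7% of all genes, and a median of 0.0048. *Strn*, its striatin scaffold, had 4296 and 3046 reads in control and 1476, 1182 and 2203 in irradiated libraries (−1.04, SE 0.21, adjusted p = 0.0128, and −0.25 with the offset, adjusted p = 0.287). *Pdcd10*, an adaptor, had 560 and 626 reads in control and 1124, 1011 and 851 in irradiated libraries (0.91, SE 0.22, adjusted p = 0.0212, and 0.58 with the offset, adjusted p = 0.0874). *Slmap* (−0.35, adjusted p = 0.0870), *Strn4* (0.23, adjusted p = 0.308) and the phosphatase subunit *Ppp2r1a* (0.35, adjusted p = 0.131) did not pass. Over the 45 genes of these lists, 9 were called lower and 2 higher as fitted, beside 13.0% and 12.7% of all genes, and 1 lower and 0 higher with the offset, beside 2.08% and 2.85%.

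**Figure D4:**
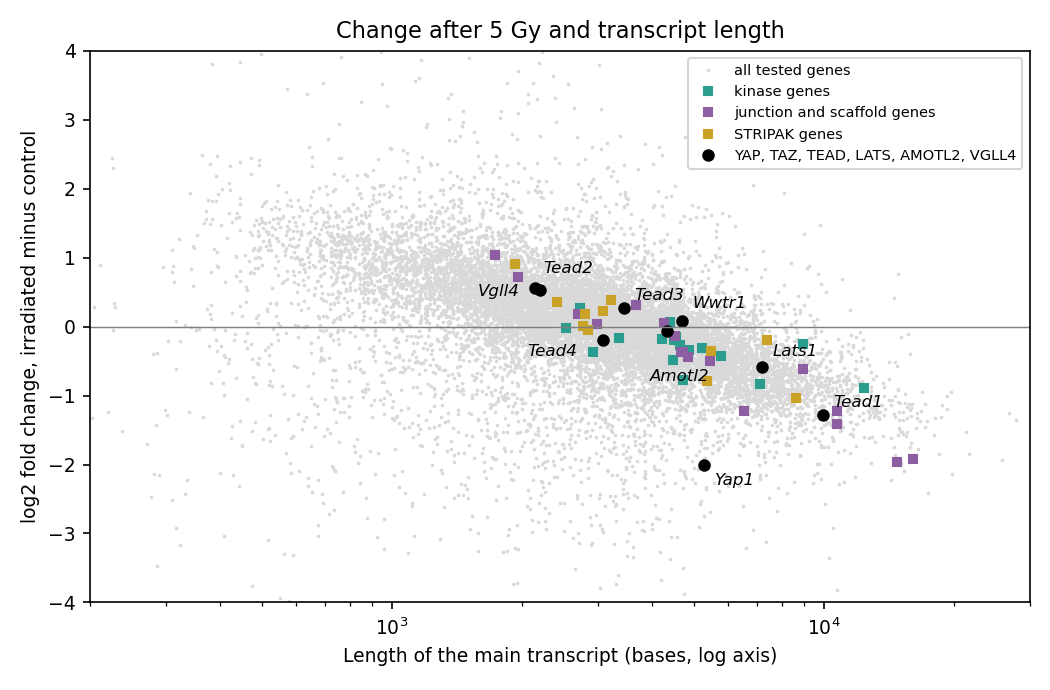
Log2 fold change of irradiated against control libraries (y axis, as fitted without the length offset) against the length of the main transcript in bases (log axis) for all tested genes (grey), with 66 genes outside the plotted range. The 9 tested YAP, TAZ, TEAD, LATS, AMOTL2 and VGLL4 genes are black, and kinase, junction and STRIPAK genes are coloured squares. Longer transcripts lie lower, and *Tead1* at 9964 bases and *Lats1* at 7209 bases lie within the grey band, while *Yap1* at 5282 bases lies below most of it.

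The plot of change against length shows this trend over all genes. *Vgll4* and *Tead2*, at 2198 and 2140 bases, lay side by side at the short end of the set and above 0, and *Lats1* and *Tead1* at its long end and below 0.

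Genes that YAP and TAZ activate in other cells gave a mixed account. Of 20 such targets 16 were tested, with 3 called lower, 2 higher and 11 not called, beside 13.0% and 12.7% of all genes called lower and higher, and their median log2 fold change was 0.01. The best-known targets had few reads. *Ankrd1* had 0 reads in all 5 libraries, and *Axl* had 3 reads in irradiated library 1 and 0 elsewhere. *Ccn1* (CYR61) had 0 and 11 reads in control and 3, 3 and 12 reads in irradiated libraries. *Ccn2* (CTGF) had 6 and 3 reads in control and 81, 5 and 12 reads in irradiated libraries. Irradiated library 1 alone was high. The log2 fold change of 2.97 (SE 1.26) had an adjusted p of 0.113 by edgeR. With DESeq2, an alternative, it was 2.99 with an adjusted p of 0.0449, under the threshold.

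*Fjx1*, whose product is related to the *Drosophila* modifier of Fat and Dachsous, had 164 and 187 reads in control and 376, 367 and 415 in irradiated libraries. It rose by a log2 fold change of 1.29 (SE 0.22, adjusted p = 0.0095), and with the length offset by 1.30 (adjusted p = 0.0295), the one call among the targets there. *Gadd45a*, a stress gene induced by DNA damage, had 438 and 675 reads in control and 2312, 1209 and 1054 in irradiated libraries (1.61, SE 0.38, adjusted p = 0.0200, and 1.04 with the offset, adjusted p = 0.0967). *Asap1* had 5025 and 3959 reads in control and 2294, 2153 and 3355 in irradiated libraries (−0.64, SE 0.17, adjusted p = 0.0301), and *Rbms3* had 200 and 149 reads in control and 52, 58 and 83 in irradiated libraries (−1.28, SE 0.33, adjusted p = 0.0266). *Dock5*, the third call lower, had 76 and 59 reads in control and 21, 9 and 25 in irradiated libraries (−1.75, SE 0.54, adjusted p = 0.0467). With the length offset *Asap1* was at −0.36 (adjusted p = 0.154), *Rbms3* at −0.55 (adjusted p = 0.276) and *Dock5* at −0.87 (adjusted p = 0.306). *Tgfb2*, with *Gadd45a* among the 2 targets of highest mean TPM, was not called (−0.36, adjusted p = 0.257).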

How the data were processed

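The study sequenced RNA of KP1 cells and, in other samples, single CD45+ leukocytes of tumors, of which 6 are not analysed here. The authors quantified KP1 reads with Salmon (version 0.8.2 in the submitters' processing notes) at default settings against mm10 and deposited, per transcript, estimated counts of reads that need not be whole, and TPM. The notes also name DESeq2 1.22.2, and the study's own comparison used it with independent hypothesis weighting. The annotation release, library strandedness and sequencing date are not given in the sources used here.

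Transcript identifiers, stripped of their versions, were looked up in GENCODE M21 (GRCm38), which held 112762 of 113116 with 99.87% to 99.88% of reads, and the estimated counts of each of 35056 genes were added up and rounded. edgeR 4.0.16 (R 4.3.3) was used with filterByExpr, TMM normalization, the quasi-likelihood test without a block and Benjamini-Hochberg adjustment over 14106 genes. A call is an adjusted p under 0.05. The study's fold threshold of 1.5 on the log2 scale was an alternative. The common dispersion was 0.0542. With 2 against 3 libraries an exact two-sided permutation test cannot go below p = 0.10, so no single-gene permutation test was run. Floors of 3 reads and read counts cover counting error only. In simulations a call needed both an adjusted p under 0.05 and a log2 fold change beyond 1.5 in either direction. On simulated counts of this comparison with 200 genes changed by 2 on the log2 scale, edgeR recovered 94.5% with 0 false calls (13962 genes). With a simulated length trend it recovered 81% with 273 false calls, and with the length offset 94% with 2 (14192 genes). That trend was made from the same transcript lengths that the offset uses, so its removal was built in. The simulation does not show how much real change of long genes the offset takes out. The changed genes had more reads on average than *Yap1*, *Wwtr1*, *Tead3* and *Tead4*. These rates therefore do not carry over to calls by adjusted p alone or to those genes. Antisense and overlapping genes of the set had at most 1 read.

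The 10 genes and all lists were chosen with earlier results of these data known. Besides the 10, the text names in each list the 4 genes with the smallest p and the 2 with the highest mean TPM, plus *Stk3*, *Stk4*, *Sav1*, *Mob1a*, *Mob1b*, *Scrib*, *Rassf1*, *Ankrd1*, *Axl*, *Ccn1*, *Ccn2*, *Dock5*, *Vgll1*, *Vgll2* and cell type markers, which were added after their values were seen. A gene within this rule is not reported here.

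Control and irradiated libraries share the numbers 2 and 3 only. No source says that same-numbered libraries were handled together, so the replicate block is an alternative. Replicates differed beyond counting noise (chi-square per degree of freedom 39.1 to 80.5), so none was a copy of another. Further alternatives were DESeq2 1.42.0, other normalizations and filters, protein-coding genes alone, offsets from effective length or from a spline on transcript length (5 degrees of freedom), and each library left out. Plots and tables used Python 3.11.15 with pandas 2.3.3, numpy 2.4.6 and matplotlib 3.10.9.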

Additional observations from a re-analysis of the deposited data

How the results depend on the processing

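With the transcript length offset, calls lower and higher were 0 and 0 of the 10 genes, 1 and 0 of the kinase, junction and STRIPAK genes and 0 and 1 of the targets, and the median of the 9 tested genes was 0.17. With the effective length offset, calls higher were 0 of the 10 genes and 1 of the kinase, junction and STRIPAK genes, calls lower were 0 of the targets, and the median was 0.15. With the study's fold threshold, calls were 0 and 0, 2 lower and 0 higher, and 1 and 1 in these sets. Without a filter on low counts, 5 targets were called higher. With DESeq2, calls lower and higher were 2 and 1 of the 10 genes, 12 and 2 of the kinase, junction and STRIPAK genes and 3 and 3 of the targets. Shares over all genes were worked out for the main fit, the transcript length offset and the fold threshold alone. The counts under the other settings therefore have no background beside them.

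Libraries 2 and 3 of both groups share only a number, and the differences between library 2 and library 3 in control and in irradiated cells correlated at −0.196 across genes. With the replicate block, calls lower and higher were 1 and 0 of the 10 genes, 4 and 0 of the kinase, junction and STRIPAK genes, and 0 lower of the targets, and *Wwtr1* was at −0.070. *Tead1* was called under the block (−1.22, adjusted p = 0.0395), and *Lats1* (adjusted p = 0.194) and *Vgll4* (adjusted p = 0.208) were not. The block with the transcript length offset gave 0 calls in all sets and directions and a median of 0.13. With the pairing crossed, an alternative added after the data were seen, 17 kinase, junction and STRIPAK genes were called lower and 4 higher, with *Wwtr1* at −0.072. The share of all genes called was not worked out under any of these blocks. The counts therefore have no background and are not read as a result about these genes.

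Leaving out 1 library gave 1 to 2 calls lower and 0 higher among the 10 genes, 1 to 11 lower and 0 to 2 higher among kinase, junction and STRIPAK genes, 0 to 3 lower and 0 to 3 higher among targets, and medians from −0.23 to 0.0055. The lowest counts came without control library 2, which left 1 kinase, junction or STRIPAK call. Leaving out a control leaves 1, which is then assumed to vary like the irradiated libraries. The share of all genes called was not worked out for the fits with a library left out, so their counts have no background. *Tead1* was called in all 5 of these fits (adjusted p 0.0046 to 0.0489).

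Signs turned without control library 3 or irradiated library 1 for *Wwtr1* (log2 fold changes from −0.074 to 0.26 when 1 library was left out), without control library 2 or irradiated library 3 for *Tead3* (−0.33 to 1.07), without control library 2 or irradiated library 2 for *Tead4* (−0.75 to 0.059), and without control library 3 for *Amotl2* (−0.24 to 0.17). With the effective length offset they turned for *Tead2* (−0.70), *Tead4* (0.20), *Amotl2* (0.57) and *Csnk1d* (−0.21). With the transcript length offset, alone and with the block, they turned for *Lats1* (0.076 and 0.029), *Amotl2* (0.17 and 0.13), *Taok1* (0.13 and 0.17), *Map4k4* (0.054 and 0.094), *Slmap* (0.090 and 0.064) and *Tgfb2* (0.0090 and 0.20). *Amotl2* was also above 0 with library size alone (0.0095). The cause was not tested.

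*Lats2*, at 0 reads, could not be tested, and *Yap1*, *Wwtr1*, *Tead3* and *Tead4*, at 0 to 49 reads a library, had standard errors of 0.51 to 1.20.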
